A study of Mus musculus with 30 samples.

Results

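Oligodendrocyte and myelin genes were followed across nucleus accumbens libraries of mice with nerve injury or sham surgery that were given an antidepressant or saline. The members were 30 genes listed by symbol, out of 55401 gene IDs in the deposited count table. Of these, 26 belong to the mature, myelin-forming oligodendrocyte and 4, Pdgfra, Vcan, Olig1 and Olig2, to its precursors or to the whole lineage. All 30 symbols were found and all 30 passed the filter on low counts, the lowest count of any member in any library being 159, for Tmem125.

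The tissue was bilateral punches of the nucleus accumbens, part of the ventral striatum, from male C57Bl/6J mice, with 1 animal for each of 30 libraries of polyadenylated RNA. Surgery was tibial SNI, a spared nerve injury used as a model of neuropathic pain, or sham, and injections given 2 times a day for 3 weeks began 4 weeks after surgery. The groups were SNI mice on desipramine at 15 mg/kg (n = 4), sham mice on desipramine at 15 mg/kg (n = 4), SNI mice on tianeptine at 30 mg/kg (n = 6), sham mice on tianeptine at 30 mg/kg (n = 6), SNI mice on saline (n = 5) and sham mice on saline (n = 5), the last being the series' control. Desipramine, a tricyclic compound, inhibits the noradrenaline transporter, tianeptine is an atypical antidepressant with activity at the mu-opioid receptor, and the age of the animals is not given in the labels.

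Oligodendrocytes wrap axons of the brain in myelin, a stack of membrane held together by proteins such as Mbp and rich in galactolipids and cholesterol. They arise from precursor cells that carry the growth factor receptor Pdgfra and the proteoglycan Vcan and that persist in the adult brain. Olig2 and Sox10 are needed through much of the lineage, and Myrf switches on the myelin genes as a cell matures. In RNA from a whole punch, fewer cells of a type and less RNA per cell cannot be told apart.

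The bases just upstream of the start that RefSeq gives a gene were read for the members, since the mature genes are known targets of Sox10 and Myrf. The RefSeq table of promoters (build GRCm38.p6, which is mm10) held a window for 21 of the 30 members. Each window was searched on both strands for 4 short motifs over its 250 upstream bases. CTGGCAC, a core of Myrf sites, was found in 2 of the 21 windows and in 4.19% of all 32851 windows of that length. ACAAAG, a core bound by SOX factors, was found in 5 windows and in 16.5% of all, and its variant ACAATG in 2 windows and in 10.7% of all. CAGCTG, an E-box of the kind bound by Olig factors, was found in 1 window and in 13% of all. A match describes these letters and is not evidence of binding.

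Mag and Cnp were the members whose windows held both CTGGCAC and ACAAAG, and Opalin, a glycoprotein found in oligodendrocytes, held ACAAAG. They are shown as 3 members with a match that followed Mog closely from library to library, with Pearson's r of 0.90, 0.86 and 0.88. Mobp, with r = 0.90, also held ACAAAG and is not printed. Capitals mark the motifs on either strand. The windows lie at chr7:30914864-30915113, minus strand, at chr11:100574689-100574938, plus strand, and at chr19:41077114-41077363, minus strand.
Mag: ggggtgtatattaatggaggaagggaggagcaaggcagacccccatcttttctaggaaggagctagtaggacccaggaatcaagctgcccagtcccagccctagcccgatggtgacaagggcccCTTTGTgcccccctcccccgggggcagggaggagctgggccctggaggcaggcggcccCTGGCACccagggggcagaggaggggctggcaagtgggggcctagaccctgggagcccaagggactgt
Cnp: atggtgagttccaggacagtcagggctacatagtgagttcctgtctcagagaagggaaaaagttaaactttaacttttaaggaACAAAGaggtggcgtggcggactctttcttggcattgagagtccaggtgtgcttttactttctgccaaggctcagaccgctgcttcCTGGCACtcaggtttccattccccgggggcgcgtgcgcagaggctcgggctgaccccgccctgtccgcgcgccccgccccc
Opalin: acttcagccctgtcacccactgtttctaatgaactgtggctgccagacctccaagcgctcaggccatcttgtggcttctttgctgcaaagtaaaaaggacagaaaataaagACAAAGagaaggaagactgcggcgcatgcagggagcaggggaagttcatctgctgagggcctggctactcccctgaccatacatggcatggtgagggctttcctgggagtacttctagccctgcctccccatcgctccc

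Nkx6-2, Tspan2 and Pdgfra are shown because they passed the test in the comparison of SNI with sham mice on desipramine, and their windows held none of the 4 motifs. The start that GENCODE gives Tspan2 lies near the upstream end of its window, so nearly all of the printed Tspan2 bases are inside the gene by that annotation. Olig1, the other member that passed, had no entry in the table. The windows lie at chr7:139582798-139583047, minus strand, at chr3:102734520-102734769, plus strand, and at chr5:75152001-75152250, plus strand.
Nkx6-2: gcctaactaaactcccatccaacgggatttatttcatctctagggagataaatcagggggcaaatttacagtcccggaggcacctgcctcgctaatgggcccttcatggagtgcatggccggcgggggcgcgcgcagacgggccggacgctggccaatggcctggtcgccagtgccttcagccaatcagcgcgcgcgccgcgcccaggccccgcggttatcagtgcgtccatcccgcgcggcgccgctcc
Tspan2: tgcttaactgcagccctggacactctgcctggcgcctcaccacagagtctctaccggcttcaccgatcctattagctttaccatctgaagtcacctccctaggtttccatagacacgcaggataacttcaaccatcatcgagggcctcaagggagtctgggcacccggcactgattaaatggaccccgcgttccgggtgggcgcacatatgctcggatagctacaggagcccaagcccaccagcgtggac
Pdgfra: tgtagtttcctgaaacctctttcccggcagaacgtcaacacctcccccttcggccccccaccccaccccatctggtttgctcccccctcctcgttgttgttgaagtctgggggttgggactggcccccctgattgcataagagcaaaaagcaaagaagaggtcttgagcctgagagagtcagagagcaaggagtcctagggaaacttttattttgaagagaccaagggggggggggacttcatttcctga

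The libraries held 24.5 to 37.7 M counts in the 24 libraries of replicates 1 to 4 and 98.0 to 120.7 M in the 6 libraries of replicates 5 and 6, which carry a second run of library numbers and include no desipramine library (library sets 1 and 2 below). The members took 0.33% to 0.65% of a library's counts. In neuron genes 2 libraries, picked with earlier results of these data known, stand apart. In SNI desipramine replicates 2 and 3 the striatal projection neuron gene Ppp1r1b stood at 73.4 and 312 CPM (counts per M counts, scaled between libraries by the trimmed mean of M values), against 401 to 897 CPM in the 4 sham desipramine libraries. The same 2 libraries had the mean centred log2 CPM of 7 septal, hypothalamic and thalamic neuron genes at 2.07 and 2.02, against -0.74 to -0.01 in the sham desipramine libraries. The summed level of 12 medium spiny neuron genes, the defining cells of the labelled region, was between 4444 and 9422 CPM in every group but SNI desipramine, where it ran from 1234 to 8429 CPM. For SNI against sham on desipramine, the members' calls and the mature median are given with and without these 2 libraries. The mature median is also given both ways for desipramine in SNI mice and for its difference from sham mice. Scores and the values of genes outside the members are given with them only. Other libraries stood out on other lists. The mean centred log2 CPM of 6 choroid plexus genes was 4.05 in sham tianeptine replicate 6. That of 7 fibroblast and meninges genes was 2.99 in sham saline replicate 3.

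Per length, the structural proteins of the sheath led the levels. Mbp, which joins the inner faces of the myelin membrane, averaged 196 CPM per kb of exon over the 30 libraries and Cnp, an enzyme of the uncompacted sheath, 101 CPM per kb. Next came Plekhb1 at 69.7 CPM per kb, Mal at 66.3, a proteolipid of myelin membrane traffic, and the iron carrier Trf at 65.5 CPM per kb. Among the transcription factors Olig1 was the highest at 47.2 CPM per kb, above Sox10 at 17.5, Olig2 at 11.96, Nkx6-2 at 10.4 and Myrf at 7.55 CPM per kb. Pdgfra stood at 6.23 CPM per kb and Vcan, the lowest of all members, at 2.91 CPM per kb. Mbp was above Cnp in all 30 libraries with ranges that did not overlap, whereas every other pair of neighbours in this order overlapped in range.

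**Figure D1:**
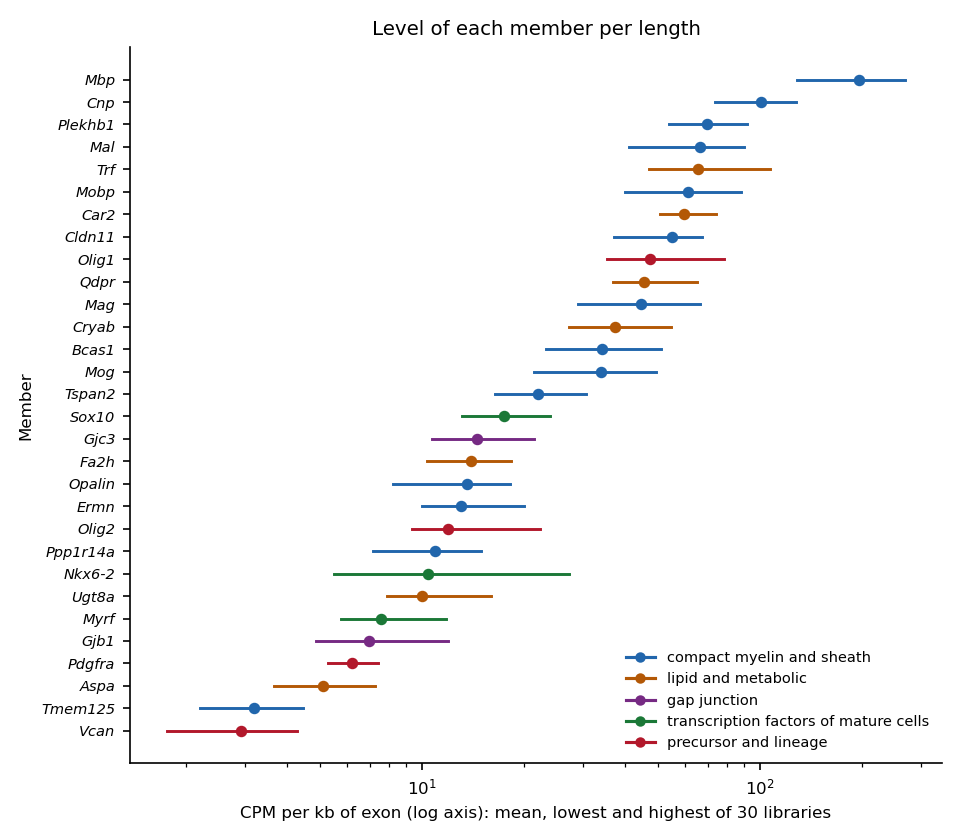
Level of each of the 30 members in CPM per kb of exon on a log axis, as the mean (point) and the lowest and highest of 30 libraries (line), coloured by role. Mbp lies highest with a mean of 196 CPM per kb, and Vcan lowest with a mean of 2.91 CPM per kb.

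The members differed in how far they ranged between libraries. Pdgfra was the steadiest, at 52.9 to 74.1 CPM, a ratio of 1.4 between its highest and lowest library. Car2, the carbonic anhydrase of oligodendrocytes, followed with a ratio of 1.47. Nkx6-2, a homeodomain factor of mature oligodendrocytes, was the most variable at 10.5 to 51.9 CPM, a ratio of 4.96, and Gjb1, a connexin of the gap junctions between glia, came next with 2.46. SNI desipramine replicate 2 was the highest library for 22 of the 30 members, and sham desipramine replicate 1 was the lowest for 18. The extremes of most members thus lay inside the desipramine groups.

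The mature genes moved together from library to library. Each of the other 25 mature members correlated with Mog, the surface protein of the outermost myelin layer, across 30 libraries, with Pearson's r from 0.54 for Ugt8a to 0.90 for Mag and a median of 0.82. All 25 passed by both Pearson's r and Spearman's rho in a permutation test with 100000 resamples (2-sided, Benjamini-Hochberg adjusted over 62 relations), where the smallest p the resamples can give is 1e-05. For Mag, r was 0.90 and rho 0.87 (adjusted p = 3.26e-05 and 3.44e-05), and for Mbp r was 0.76 and rho 0.79 (the same adjusted p values). For Ugt8a, which makes the galactolipid of myelin, r was 0.54 and rho 0.47 (permutation test, adjusted p = 0.00483 and 0.0232). Without the 2 libraries farthest from the median of Mog, sham desipramine replicate 1 at 36.5 CPM and SNI desipramine replicate 2 at 84.2 CPM, the median r was 0.75 and the lowest, again for Ugt8a, 0.33. Within the 24 libraries of set 1 the median r was 0.82, and on residuals after group and library set it was 0.91. These libraries share the normalisation, and no cause of the shared movement was tested.

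The precursor and lineage genes followed Mog less closely than most mature genes, or not at all. Olig1 had r = 0.58 and rho = 0.57 with Mog (permutation test, adjusted p = 0.00215 and 0.00323) and Olig2 r = 0.43 and rho = 0.35 (adjusted p = 0.0352 and 0.114). Pdgfra had r = 0.27 and rho = 0.13 (adjusted p = 0.210 and 0.618). Vcan ran the other way, with r = -0.39 and rho = -0.44 (adjusted p = 0.0613 and 0.0371). Without the 2 farthest libraries r was 0.43 for Olig1, 0.27 for Olig2, -0.08 for Pdgfra and -0.33 for Vcan. On residuals after group and library set r was 0.62 for Olig1, 0.69 for Olig2, 0.14 for Pdgfra and -0.16 for Vcan. The lowest mature member by that measure, Nkx6-2, was at 0.69, level with Olig2. Over all libraries Olig1 was also above the mature member Ugt8a, at 0.54. Genes of other cells, the projection neuron gene Ppp1r1b, the astrocyte water channel Aqp4, the microglial receptor P2ry12 and the cortical glutamate transporter Slc17a7, had r with Mog of -0.26, 0.04, 0.07 and -0.25, and none passed the permutation test. Vcan also ran against Pdgfra, with r = -0.35 and rho = -0.40 (permutation test, adjusted p = 0.099 and 0.0565). With Pdgfra, none of the 29 other members passed by both measures. The largest was Nkx6-2 at r = 0.61 and rho = 0.41 (permutation test, adjusted p = 0.00107 and 0.0542). Its r was 0.37 without the 2 libraries farthest from the median of Pdgfra, SNI desipramine replicates 3 and 2. Leaving these out also narrows the range of Pdgfra, so the drop cannot show how far the relation rests on them. In library set 1 its r was 0.66, and on residuals after group and library set 0.47.

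**Figure D2:**
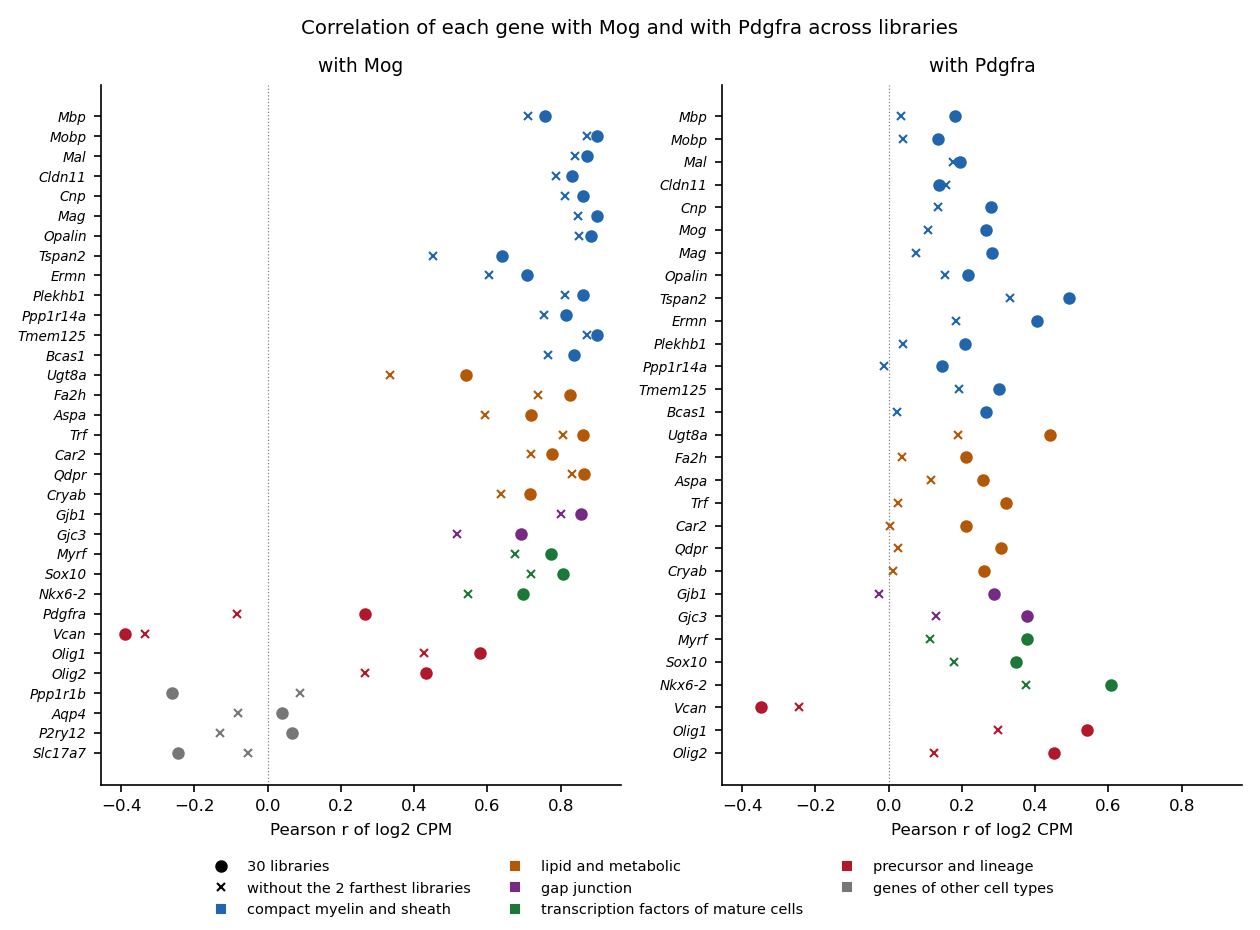
Pearson's r of log2 CPM between each gene and Mog (left) or Pdgfra (right) over 30 libraries (dots) and without the 2 libraries farthest from the median of the named gene (crosses). The mature members lie between 0.54 and 0.90 with Mog, while Vcan lies at -0.39.

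A score for each class, the mean over its members of log2 CPM centred on each gene's mean, sums up the libraries. The mature score was 0.03, 0.54, 0.17 and -0.22 in the 4 SNI desipramine libraries and -0.47, 0.25, -0.29 and -0.07 in the 4 sham desipramine libraries. It ran from -0.27 to 0.33 with a median of -0.02 in SNI tianeptine libraries and from -0.12 to 0.03 with a median of -0.02 in sham tianeptine libraries. In SNI saline libraries it was 0.19, 0.07, 0.24, -0.03 and -0.29, and in sham saline libraries -0.07, 0.23, -0.02, 0.17 and -0.02. All 6 groups overlapped, and the mature score spread most within the desipramine groups (SD 0.32 in SNI and 0.31 in sham, n = 4 each). The SD was 0.21 in SNI tianeptine (n = 6), 0.21 in SNI saline (n = 5) and 0.14 in sham saline (n = 5). It was smallest in sham tianeptine (SD 0.05, n = 6), and these differences in spread were not tested.

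The precursor score was highest in SNI desipramine libraries, at 0.14, 0.40, 0.23 and -0.0013, against -0.10, 0.11, 0.04 and -0.03 in sham desipramine libraries. In SNI tianeptine libraries it ran from -0.15 to 0.04, and in sham tianeptine libraries from -0.23 to 0.02. In SNI saline libraries it ran from -0.11 to 0.21, and in sham saline libraries from -0.12 to 0.03. Every group overlapped with every other group here too.

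**Figure D3:**
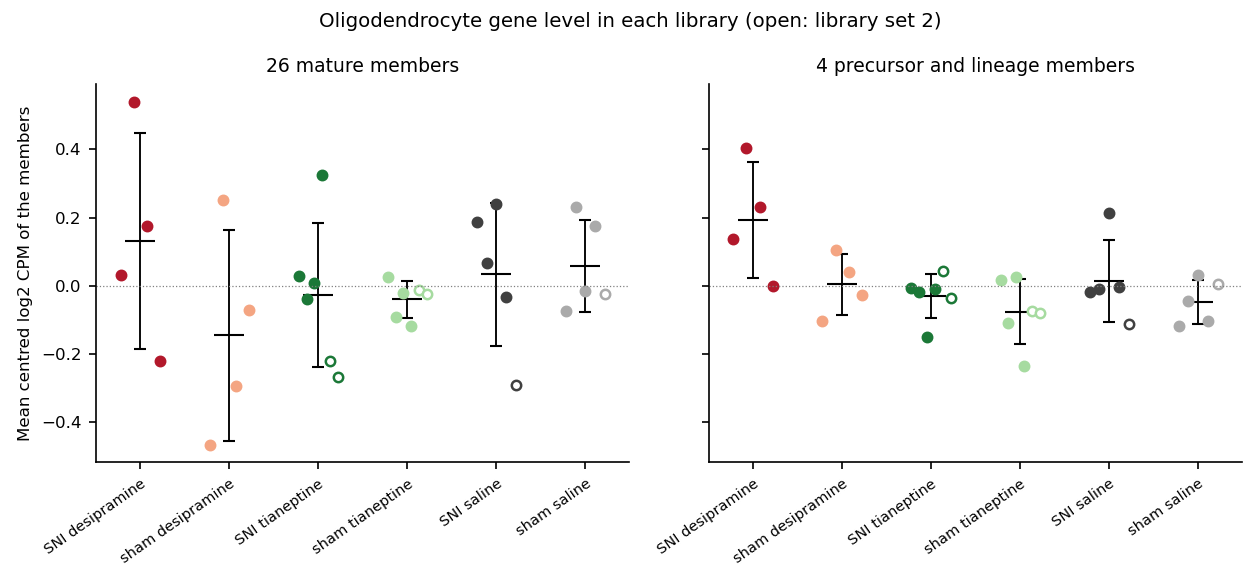
Mean centred log2 CPM of the 26 mature members (left) and of the 4 precursor and lineage members (right) in each library by group, with the group mean and SD as bars and library set 2 as open points. SNI desipramine replicate 2 lies highest for the mature members at 0.54, and sham desipramine replicate 1 lowest at -0.47.

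Among mice on desipramine, those with SNI had higher levels of a few lineage genes than those with sham surgery. Nkx6-2 was 2.22-fold higher, the lineage factor Olig1 1.41-fold, the tetraspanin Tspan2 1.34-fold and the precursor receptor Pdgfra 1.17-fold. These 4 of the 30 members passed the test (edgeR's quasi-likelihood test with Benjamini-Hochberg adjustment over all genes, adjusted p under 0.05), and 10 had an unadjusted p under 0.05. Of the 23736 genes tested, 11.3% passed in this comparison, so the members' share of calls was close to that of all genes. DESeq2 and limma-voom also called 4 members each.

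Nkx6-2 stood at 26.04, 51.9, 37.8 and 14.8 CPM in the 4 SNI desipramine libraries, against 10.5, 17.6, 11.9 and 18.96 CPM in the 4 sham desipramine libraries. Replicate 4 of the SNI mice lay inside the range of the sham mice and the other 3 above it. The log2 fold change was 1.15 (SE 0.27, edgeR adjusted p = 0.0104). The gene is at chr7:139579376-139582797 on mm10 and is overlapped on the opposite strand by Inpp5a, and the strand setting of the counting is not given in the sources used here, so reads of the pair cannot be told apart with certainty. The same holds for 12 members in all, among them Tspan2, Pdgfra and Olig1.

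Olig1 (chr16:91269772-91271933) stood at 137, 169, 139 and 90.4 CPM in SNI desipramine libraries, against 82.8, 106, 93.6 and 97.3 CPM in sham desipramine libraries. Again the first 3 SNI replicates lay above all sham libraries and the fourth among them. The log2 fold change was 0.50 (SE 0.13, edgeR adjusted p = 0.0197). Olig2, the other basic helix-loop-helix factor of the lineage, is its neighbour on chromosome 16 and showed 35.7, 56.5, 41.1 and 30.9 CPM in SNI desipramine libraries, against 28.1, 40.8, 29.7 and 30.0 CPM in sham desipramine libraries. The groups overlapped, and the log2 fold change of 0.35 (SE 0.14) did not pass (edgeR adjusted p = 0.111).

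Tspan2 (chr3:102734529-102801513) stood at 110.2, 146, 120.2 and 92.3 CPM in SNI desipramine libraries, against 78.5, 103, 78.8 and 89.0 CPM in sham desipramine libraries, the lowest SNI value lying under the highest sham value. Its log2 fold change was 0.43 (SE 0.12, edgeR adjusted p = 0.0242). Pdgfra (chr5:75152292-75198215) stood at 66.9, 73.1, 74.1 and 61.8 CPM in SNI desipramine libraries, against 52.9, 55.1, 60.1 and 67.0 CPM in sham desipramine libraries, and the groups overlapped only through sham replicate 4. Its log2 fold change was 0.23 (SE 0.07, edgeR adjusted p = 0.0441). Vcan, the other precursor gene, had 34.3, 33.7, 34.1 and 44.2 CPM in SNI desipramine libraries, against 46.8, 43.3, 51.0 and 36.4 CPM in sham desipramine libraries, so the precursor members did not share a direction.

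Of the 14 compact myelin and sheath genes only Tspan2 passed in this comparison, and Mog and Mbp did not. Mog stood at 57.6, 84.2, 60.4 and 45.6 CPM in SNI desipramine libraries, against 36.5, 63.9, 41.8 and 46.2 CPM in sham desipramine libraries (log2 fold change 0.40, SE 0.16, edgeR adjusted p = 0.109). Mbp stood at 1685, 2234, 1784 and 1471 CPM in SNI desipramine libraries, against 1255, 2121, 1487 and 1768 CPM in sham desipramine libraries (log2 fold change 0.11, SE 0.14, adjusted p = 0.633). Both pairs of groups overlapped. All 26 mature members had a log2 fold change above 0, with a median of 0.26 beside a median of 0.01 over all genes tested, and since these genes move together from library to library their common sign is not 26 separate observations. By role the median was 0.23 for 14 compact myelin and sheath genes, with 1 call, 0.22 for 7 lipid and metabolic genes, with none, 0.38 for both connexins Gjb1 and Gjc3, with none, and 0.29 for the 3 factors Myrf, Sox10 and Nkx6-2, with 1.

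**Figure D4:**
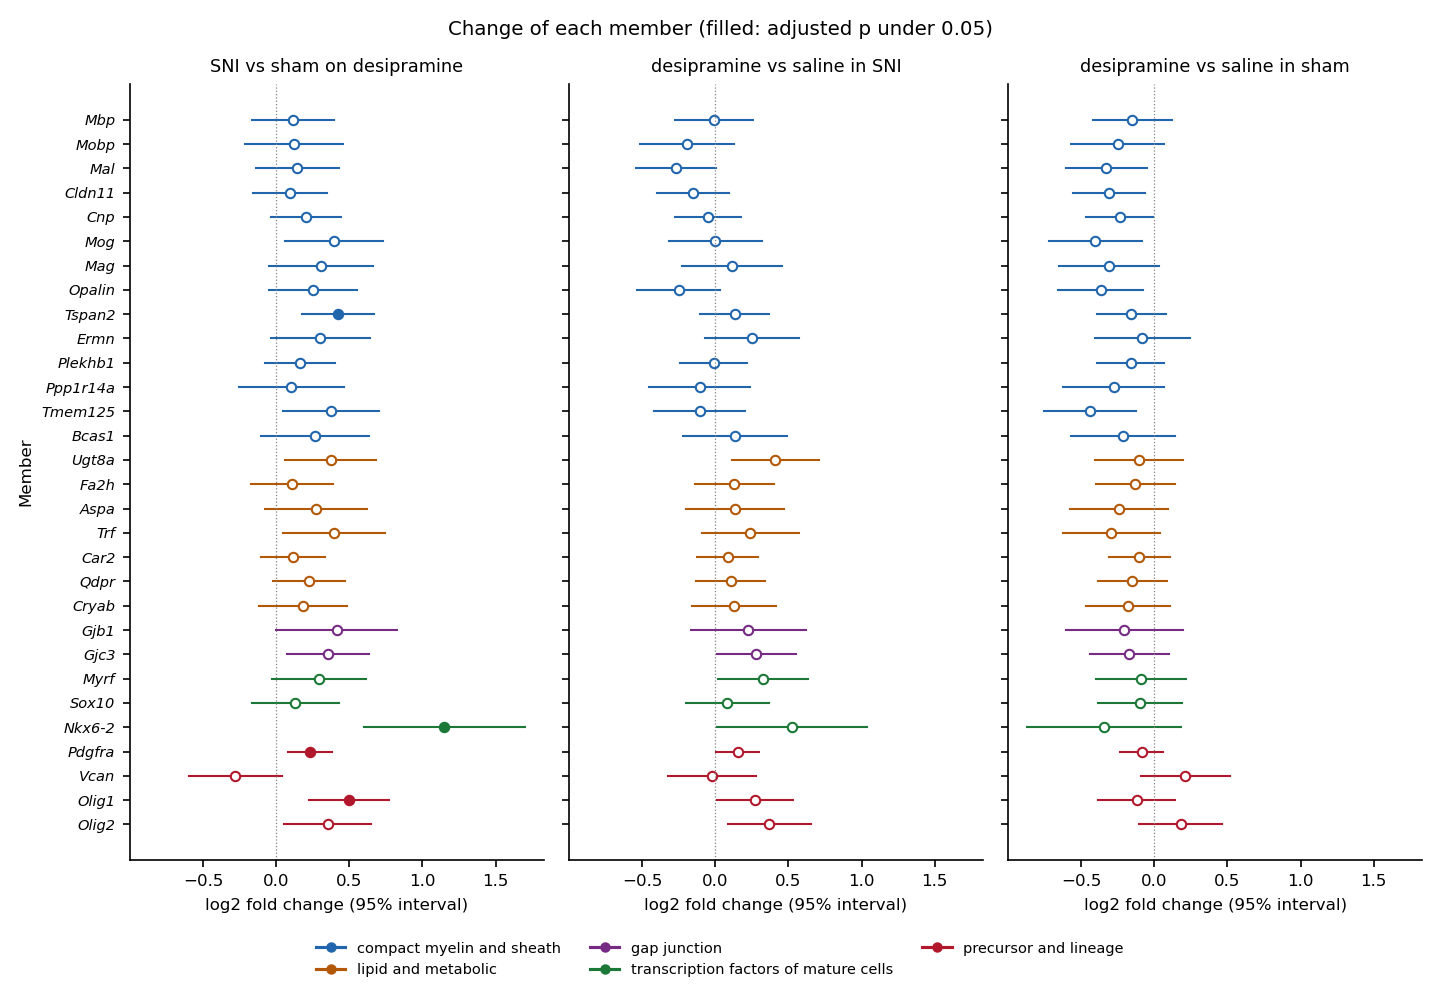
Log2 fold change of each member with its unadjusted 95% interval in 3 comparisons, ordered and coloured by role, with filled points where the edgeR adjusted p was under 0.05. Filled points are Tspan2, Nkx6-2, Pdgfra and Olig1 in SNI against sham mice on desipramine, and none in desipramine against saline, in SNI or in sham mice.

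These 4 calls rested on the libraries that stand apart. Without SNI desipramine replicates 2 and 3, 0 members and 0 genes in all passed with edgeR, and the log2 fold change was 0.46 for Nkx6-2, 0.24 for Olig1, 0.20 for Tspan2 and 0.11 for Pdgfra, while the median of the mature members was -0.0047. Without SNI desipramine replicate 2 alone, 0 members passed. Leaving out single libraries otherwise gave 1 call without SNI desipramine replicate 3 and 10 without SNI desipramine replicate 4. It gave 1 without sham desipramine replicate 1, 7 without sham desipramine replicate 2 and 2 without sham desipramine replicate 3, and 3 without either replicate 4 of sham desipramine or replicate 1 of SNI desipramine. Over these 8 omissions the genes called in all ranged from 0 to 5903, beside 23736 genes tested in the full fit, so the counts of members moved with those of all genes. Leaving out a library of another group, which enters only through the shared fit, gave 3 calls in 7 of 22 cases and 4 in the other 15. Nkx6-2 lost its call only without SNI desipramine replicate 2 among these 8 single omissions (adjusted p = 0.0942), and Pdgfra kept its call only without SNI desipramine replicate 4 (0.0145) or sham desipramine replicate 4 (0.0298). Pdgfra was also not called with the DESeq2 size factors (adjusted p = 0.0601), with no filter on low counts (0.120), with no coefficient for the library set (0.0532) or in library set 1 alone (0.0915).

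**Figure D5:**
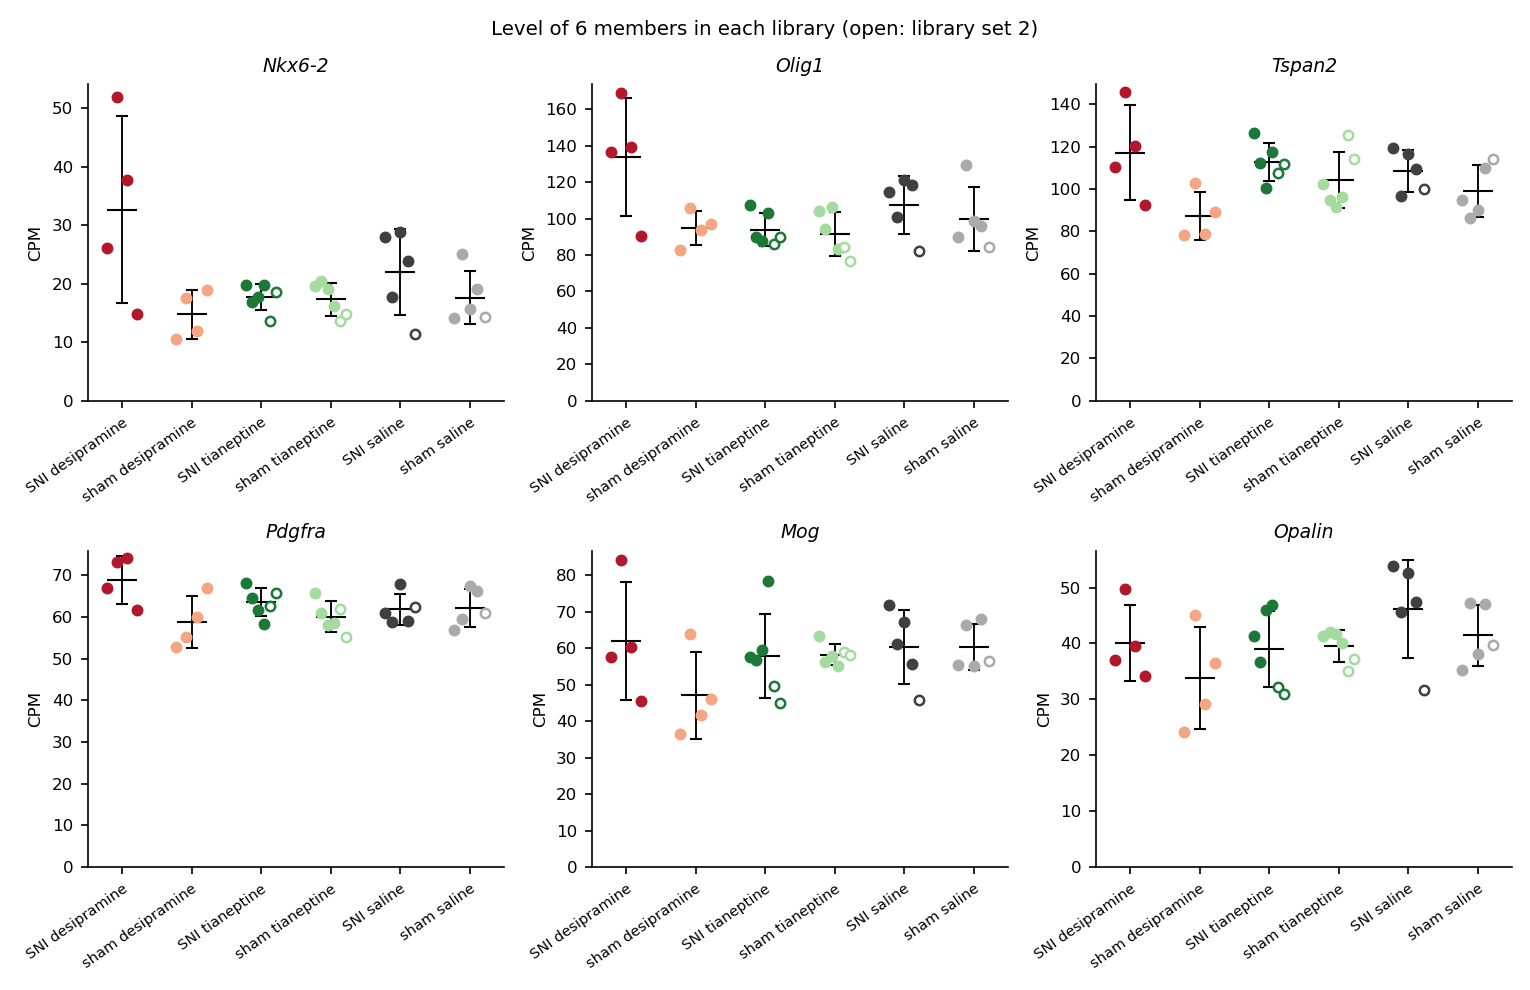
Level in CPM of Nkx6-2, Olig1, Tspan2, Pdgfra, Mog and Opalin in each library by group, with the group mean and SD as bars and library set 2 as open points. In the SNI desipramine group replicates 1 to 3 lie above replicate 4 for each of the 6 genes, with Nkx6-2 reaching 51.9 CPM in replicate 2.

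Genes of other cells moved in the same comparison, and their part in the members' result was not tested. With all libraries 11.3% of all genes tested passed here, and without SNI desipramine replicates 2 and 3 no gene did. Of 7 tested septal, hypothalamic and thalamic genes, 5 rose in SNI mice on desipramine, among them the neuropeptide gene Gal (log2 fold change 4.20, SE 0.88, edgeR adjusted p = 0.00735) and the factor Tcf7l2 (1.88, SE 0.32, adjusted p = 0.0057). The summed level of these 7 genes ran from 43.2 to 218 CPM in SNI desipramine libraries, against 32.9 to 66.8 CPM in sham desipramine libraries. Of 12 medium spiny neuron genes all had a log2 fold change below 0, with a median of -0.57 and no call, and of 10 cortical excitatory genes 9 were below 0, with a median of -1.94 and no call. The cortical gene Slc17a7 had 1.56, 3.02, 13.1 and 148 CPM in SNI desipramine libraries, against 706, 338, 961 and 20.2 CPM in sham desipramine libraries, so the punches differed in cortical transcripts within and between the groups. Of 10 astrocyte genes 2 rose, Aldh1l1 (0.40, SE 0.09, adjusted p = 0.0102) and the receptor Fgfr3 (0.38, SE 0.10, adjusted p = 0.0158). Of 4 tested Schwann cell genes, whose summed level was at most 2.81 CPM in SNI desipramine libraries and 4.79 CPM in sham desipramine libraries, Prx was called lower.

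Genes of the lineage outside the members were read in the same way, again beside 11.3% of all genes passing. None of the calls below held without SNI desipramine replicates 2 and 3. Of 8 other precursor genes 3 rose, with Lhfpl3 (log2 fold change 0.70, SE 0.13, edgeR adjusted p = 0.00598) and the transcription factor Sox6 (0.84, SE 0.20, adjusted p = 0.0128) being those of smallest p, with a median of 0.25 over the 8. Of 17 other mature oligodendrocyte genes 0 passed and 6 had an unadjusted p under 0.05, and of 7 genes of newly formed oligodendrocytes 0 passed and 2 did. Of 16 genes of cholesterol synthesis 0 passed and 1 had an unadjusted p under 0.05, with a median of 0.07. Sox6 is also made by other cells of the brain.

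In sham mice, desipramine went with lower values of the myelin genes that did not pass the test. None of the 30 members and none of the 23736 genes passed (edgeR, 0%), 6 members had an unadjusted p under 0.05, and DESeq2 and limma-voom called 0 members. All 26 mature members had a log2 fold change below 0, with a median of -0.21 beside -0.01 over all genes, and among the precursor members Olig2 and Vcan were at 0.18 and 0.21. Tmem125, a transmembrane protein gene, had the smallest p. It stood at 5.29, 7.14, 5.15 and 6.67 CPM in sham desipramine libraries, against 6.73, 10.4, 6.87, 8.69 and 7.01 CPM in sham saline libraries (log2 fold change -0.44, SE 0.15, edgeR adjusted p = 0.547). Only sham desipramine replicate 2 lay inside the saline range.

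Opalin stood at 24.3, 45.2, 29.2 and 36.5 CPM in sham desipramine libraries, against 35.2, 47.3, 38.1, 47.1 and 39.6 CPM in sham saline libraries (log2 fold change -0.37, SE 0.14, edgeR adjusted p = 0.549). Mog stood at 36.5, 63.9, 41.8 and 46.2 CPM in sham desipramine libraries, against 55.4, 66.3, 55.2, 68.1 and 56.4 CPM in sham saline libraries (-0.40, SE 0.16, adjusted p = 0.552). For both genes desipramine replicates 1 and 3 were lowest and replicate 2 was among the saline values. Replicates 1 and 3 were also those with Slc17a7 at 706 and 961 CPM. In other groups Slc17a7 was at 741 CPM in SNI tianeptine replicate 4, 749 in sham tianeptine replicate 5 and 698 in SNI saline replicate 5. Mog stood at 78.5, 58.9 and 45.9 CPM in those libraries, of which the sham tianeptine and SNI saline libraries are of library set 2. Whether cortical tissue had a part in the Mog values was not tested. For desipramine in sham mice the 10 cortical excitatory genes had a median log2 fold change of 0.79, with none called. All 12 medium spiny neuron genes were below 0 as well, with a median of -0.19, close to that of the mature members, and all 7 fibroblast and meninges genes were below 0 with a median of -0.69, again with none called. Other lists were mixed, with 8 of 10 astrocyte, 5 of 8 endothelial and 5 of 16 cholesterol synthesis genes below 0. The part of other tissue in the members' fold changes was not tested. Without sham desipramine replicate 1 the median of the mature members was -0.10, and without replicate 2 it was -0.37.

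In SNI mice the same drug gave the mature members no shared direction. None of the 30 members and none of the genes tested passed for desipramine against saline (edgeR, 0%), 7 members had an unadjusted p under 0.05, and DESeq2 and limma-voom called 0 members. Of the mature members 17 were above 0 and 9 below, with a median log2 fold change of 0.11. Those below 0 were all among the 14 compact myelin and sheath genes. Of the 4 precursor members 3 were above 0, each with an unadjusted p under 0.05, and Vcan was at -0.02. Their median was 0.21, and 0.047 without SNI desipramine replicates 2 and 3. Of 8 other precursor genes 7 were above 0 and 6 had an unadjusted p under 0.05, with 0 called. Ugt8a stood at 44.0, 72.6, 55.1 and 45.5 CPM in SNI desipramine libraries, against 39.9, 39.7, 52.7, 36.4 and 39.4 CPM in SNI saline libraries (log2 fold change 0.41, SE 0.14, edgeR adjusted p = 0.154). Olig2 stood at 35.7, 56.5, 41.1 and 30.9 CPM in SNI desipramine libraries, against 30.3, 30.2, 40.7, 30.4 and 24.6 CPM in SNI saline libraries (0.37, SE 0.14, adjusted p = 0.172). Every desipramine library was above all saline libraries but replicate 3 for Ugt8a, and the same held for Olig2. Mal and Opalin lay the other way, at -0.27 (SE 0.13) and -0.25 (SE 0.14). Without SNI desipramine replicate 2 the mature median was -0.06 with 19 of 26 below 0, without replicates 2 and 3 it was -0.16, and in library set 1 alone it was 0.07. Without replicate 4 edgeR called 4 members, and over single omissions 0 to 3352 genes were called in all.

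Averaged over both surgeries, Mal and Opalin were the members lowest on desipramine by p. Mal stood at 167, 224, 169 and 147 CPM in SNI desipramine libraries and 114, 205, 139 and 181 CPM in sham desipramine libraries, against 250, 197, 221, 222 and 136 CPM in SNI saline libraries and 180.2, 211, 183, 207 and 172 CPM in sham saline libraries. Opalin, whose values in sham mice are given above, stood at 37.1, 49.8, 39.5 and 34.2 CPM in SNI desipramine libraries, against 53.8, 45.6, 52.5, 47.4 and 31.8 CPM in SNI saline libraries. Desipramine and saline libraries overlapped for both genes. The log2 fold change was -0.30 (SE 0.10, edgeR adjusted p = 0.238) for Mal and -0.31 (SE 0.10, adjusted p = 0.239) for Opalin. None of the 30 members passed, against 0.0295% of all genes, 5 had an unadjusted p under 0.05, and DESeq2 and limma-voom called 0. Olig2 stood the other way at 0.28 (SE 0.10, adjusted p = 0.278).

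The difference between the drug's effect in SNI and in sham mice was tested as an interaction. None of the 30 members and none of the genes passed (edgeR, 0%), 6 members had an unadjusted p under 0.05, and DESeq2 and limma-voom called 0 members. Ugt8a had the smallest p (0.52, SE 0.20, edgeR adjusted p = 0.328), followed by Gjc3, a connexin of myelinating glia (0.45, SE 0.18, adjusted p = 0.340). Ugt8a, whose values in SNI mice are given above, stood at 36, 53.6, 37.5 and 40.7 CPM in sham desipramine libraries, against 44.7, 38.8, 41.5, 53.6 and 52.6 CPM in sham saline libraries. Gjc3 stood at 67.2, 93.3, 74.5 and 57.0 CPM in SNI desipramine libraries and 46.7, 77.0, 49.5 and 55.3 CPM in sham desipramine libraries, against 65.4, 57.3, 64.6, 59.4 and 60.6 CPM in SNI saline libraries and 57.5, 59.4, 63.5, 72.7 and 76.6 CPM in sham saline libraries. All 26 mature members were above 0 with a median of 0.30, which was 0.14 without SNI desipramine replicate 2 and 0.04 without SNI desipramine replicates 2 and 3. Without SNI desipramine replicate 4 edgeR called 2 members, and over single omissions 0 to 957 genes were called in all.

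For tianeptine against saline no member passed the test in either surgery. In sham mice none of the 30 members and none of the genes passed (edgeR, 0%), 1 member had an unadjusted p under 0.05, and DESeq2 and limma-voom called 0 members. That member was Cryab, a small heat shock protein abundant in oligodendrocytes, which ran from 45.8 to 50.6 CPM with a median of 49.6 in sham tianeptine libraries, against 52.6, 77.6, 65.3, 60.9 and 48.9 CPM in sham saline libraries. The groups overlapped through saline replicate 5, and the log2 fold change was -0.27 (SE 0.13, edgeR adjusted p = 0.729). The mature median was -0.07, against -0.15 with 24 of 26 below 0 in library set 1 alone and -0.11 to -0.03 when single libraries were left out. For Mbp the interval of the log2 fold change was -0.32 to 0.17.

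In SNI mice tianeptine gave 0 calls among the 30 members and 0% among all genes with edgeR, no member had an unadjusted p under 0.05, and DESeq2 and limma-voom called 0 members. Opalin had the smallest p, at 30.9 to 46.9 CPM with a median of 39.1 in SNI tianeptine libraries, against 53.8, 45.6, 52.5, 47.4 and 31.8 CPM in SNI saline libraries (log2 fold change -0.20, SE 0.12, edgeR adjusted p = 0.9999). The groups overlapped, and both held their lowest values in library set 2. Over both surgeries 0 members and 0% of genes passed, with Cryab again of smallest p (-0.20, SE 0.09, adjusted p = 0.970) and the only member with an unadjusted p under 0.05. In SNI mice Cryab ran from 40.2 to 65.2 CPM with a median of 50.3 on tianeptine, against 61.0, 61.2, 61.7, 55.1 and 41.9 CPM on saline, and the groups overlapped. For the difference between SNI and sham, 0 members and 0% of genes passed, with Ugt8a first (0.26, SE 0.18, adjusted p = 0.989) and no member with an unadjusted p under 0.05. Ugt8a ran from 43.1 to 50.9 CPM with a median of 46.1 in SNI tianeptine libraries and from 35.8 to 53.3 CPM with a median of 40.0 in sham tianeptine libraries, beside the saline values given above. The mature median of that difference was 0.06, and 0.16 with 23 of 26 above 0 in library set 1 alone. DESeq2 and limma-voom called 0 members in both.

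Injury itself, set against sham surgery within saline and within tianeptine, gave no call among the members. On saline 0 of 30 members and 0% of genes passed with edgeR, no member had an unadjusted p under 0.05, and the mature median was -0.04. Olig2 had the smallest p, at 30.3, 30.2, 40.7, 30.4 and 24.6 CPM in SNI saline libraries, against 25.7, 34.4, 28.1, 26.2 and 24.6 CPM in sham saline libraries (log2 fold change 0.16, SE 0.13, edgeR adjusted p = 0.713). On tianeptine 0 of 30 members and 0% of genes passed, no member had an unadjusted p under 0.05, and the mature median was 0.02. That median was 0.14 with 25 of 26 above 0 and 1 member at an unadjusted p under 0.05 in library set 1 alone, and -0.04 to 0.05 when single libraries were left out. Pdgfra had the smallest p, at 58.4 to 68.1 CPM with a median of 63.5 in SNI tianeptine libraries, against 55.1 to 65.9 CPM with a median of 59.8 in sham tianeptine libraries (0.08, SE 0.06, adjusted p = 0.9999). Both pairs of groups overlapped, and DESeq2 and limma-voom called 0 members in both comparisons. For Mog the interval of the difference was -0.30 to 0.29 on saline and -0.30 to 0.24 on tianeptine.

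The levels of the leading members away from desipramine show the same overlap. Mog ran from 45.0 to 78.5 CPM with a median of 57.2 in SNI tianeptine libraries, against 55.1 to 63.5 CPM with a median of 58 in sham tianeptine libraries. It stood at 72.0, 61.1, 67.2, 55.6 and 45.9 CPM in SNI saline libraries, against 55.4, 66.3, 55.2, 68.1 and 56.4 CPM in sham saline libraries. The SNI libraries thus spread to both sides of the sham libraries, but those below the sham range were all of library set 2. They were tianeptine replicates 5 and 6, at 49.7 and 45.0 CPM, and saline replicate 5, at 45.9 CPM. Mbp ran from 1092 to 2276 CPM with a median of 1665 in SNI tianeptine libraries, against 1301 to 1757 CPM with a median of 1608 in sham tianeptine libraries, and it stood at 1957, 1856, 1935, 1556 and 1196 CPM in SNI saline libraries, against 1702, 2087, 1723, 1856 and 1263 CPM in sham saline libraries. Nkx6-2 stood at 28.0, 17.8, 28.8, 23.9 and 11.4 CPM in SNI saline libraries, against 14.1, 25.0, 15.6, 19.04 and 14.3 CPM in sham saline libraries. The lowest of these saline values belonged to an SNI library of library set 2. For Mbp and Nkx6-2 too, the groups overlapped on saline. Pdgfra stood at 61.1, 58.9, 67.9, 59.01 and 62.4 CPM in SNI saline libraries, against 56.8, 59.6, 67.3, 66.3 and 60.95 CPM in sham saline libraries. Olig2 ran from 24.6 to 30.8 CPM with a median of 26.9 in SNI tianeptine libraries, against 23.7 to 28.6 CPM with a median of 25.9 in sham tianeptine libraries. Both pairs of groups overlapped.

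Averaged over the 3 treatments, SNI against sham gave 0 calls among the 30 members with edgeR beside 1.84% of all genes, with 5 members at an unadjusted p under 0.05. Tspan2 came nearest (log2 fold change 0.23, SE 0.06, adjusted p = 0.0531), followed by Nkx6-2 (0.49, SE 0.14, adjusted p = 0.0540). DESeq2 called 3 members beside 1601 of the 23736 genes, and limma-voom 0 members and 0 genes. The mature median was 0.07, and 0.12 in library set 1 alone. Tspan2 was at 100.4 to 127 CPM with a median of 112 in SNI tianeptine libraries, against 91.7 to 126 CPM with a median of 99.2 in sham tianeptine libraries. It was at 119, 96.6, 117, 109 and 99.9 CPM in SNI saline libraries, against 94.8, 86.0, 89.9, 110.1 and 114 CPM in sham saline libraries. SNI values were higher on average in all 3 treatments, and the groups overlapped in each. Leaving out SNI desipramine replicate 4 gave 4 calls, SNI saline replicate 2, SNI saline replicate 5 or sham tianeptine replicate 1 gave 2 each, and SNI tianeptine replicate 3, SNI tianeptine replicate 4 or sham saline replicate 5 gave 1 each. Genes called in all ranged from 0 to 3756 over single omissions.

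The library sets gave more calls than any of the comparisons of surgery or drug described above. Of all genes 32.3% passed between set 2 and set 1 (edgeR, with the groups in the model), and 10 of the 30 members did. Of these, 8 mature genes and Olig1 were lower in set 2, among them Mbp (log2 fold change -0.54, SE 0.10, adjusted p = 7.58e-05), Mal (-0.37, SE 0.10, adjusted p = 0.00443) and Cnp (-0.34, SE 0.08, adjusted p = 0.00169). Vcan was higher in set 2 (0.43, SE 0.10, adjusted p = 0.00156). The mature median was -0.21 with 22 of 26 below 0, beside 0.01 over all genes. Set 2 holds saline and tianeptine libraries and differs from set 1 in depth as well as in numbering, and what sets it apart was not tested.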

How the data were processed

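The data were RNA-seq of the nucleus accumbens from 30 mice in 6 groups of surgery and drug. The deposited counts are whole reads per gene for 55401 gene IDs. Per the submitters' processing notes the tools were Trim Galore, HISAT2, SAMtools and featureCounts on mm10, with versions and strand setting not given in the sources used here. A stranded mRNA kit was used, per the labels. A deposited FPKM table was not used. Library totals were 24.5 to 120.7 M counts.

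Genes were tested with edgeR 4.0.16 in R 4.3.3 (TMM scaling, filterByExpr, robust quasi-likelihood test) over all 30 libraries, with a coefficient for each group and for the library set, which left 23736 genes and 23 residual degrees of freedom. P-values were adjusted over all genes by Benjamini-Hochberg at a threshold of 0.05. DESeq2 1.42.0, limma-voom (limma 3.58.1), other scaling, no filter, no set coefficient, library set 1 alone, a replicate block and left-out libraries were the alternatives. Log2 CPM used a prior count of 2, levels per kb used exonic lengths of the GENCODE annotation, and intervals are 95%. The script was tested on simulated data with 200 changed genes. No 2 libraries of a group agreed within sampling noise (smallest chi-square per degree of freedom 6.89 over 62 pairs).

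Gene symbols came from an annotation that matched 54349 IDs exactly and 792 without their version, and 260 IDs, with 0.051% of counts, did not match. The members and lists, and the libraries left out as a pair, were chosen with earlier results of these data known. All 30 members could be named. Values by library, or the lowest, median and highest in the groups of 6, are given for Mog, Mbp, Pdgfra and Olig2 and, in the groups compared, for the 2 members of smallest p in each desipramine comparison and for the 1 of smallest p in each other comparison. From each companion list at most the 2 genes of smallest p are named, besides Ppp1r1b, Aqp4, P2ry12 and Slc17a7. Gjc3, Mal, Vcan and other members with further values were chosen for description after their values were seen.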

Additional observations from a re-analysis of the deposited data

Results flagged for a closer look

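In 2 of 90 groups of member values, 1 library lay far from the rest of its group by Dixon's criterion, where chance alone gives about 5% of groups. Olig2 stood at 40.76 CPM in sham desipramine replicate 2, against 28.13 to 30.0 CPM in the other 3 libraries of that group. Ugt8a stood at 52.74 CPM in SNI saline replicate 3, against 36.43 to 39.91 CPM in the other 4 libraries of that group.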

How the results depend on the processing

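No called value changed sign under any alternative run. Without SNI desipramine replicates 2 and 3, SNI against sham on desipramine gave 0 members and 0 genes, with medians of -0.0047 for mature and 0.073 for precursor members. Without the same libraries, desipramine against saline in SNI mice had medians of -0.16 and 0.047, the interaction 0.039 and -0.0070, desipramine over both surgeries 4 genes, and SNI over all treatments 0 genes. DESeq2 called 22 genes for desipramine in sham, 555 in SNI, 132 over both, 100 for the interaction, 1 each for tianeptine in sham, in SNI and over both and for SNI on saline, 14 for SNI on tianeptine, and 1601 genes with 3 members for SNI over all treatments. For SNI over all treatments the genes called were 0 with no filter, with limma-voom, in library set 1 alone or without sham saline replicates 2 and 3, and 77 with no set coefficient. With no filter SNI on desipramine gave 1701 genes, with DESeq2 size factors desipramine in sham gave 2, in library set 1 alone desipramine over both surgeries gave 0, and without sham saline replicates 2 and 3 desipramine in sham gave 1, the interaction 3 and desipramine in SNI mice 32, although those libraries are not in that comparison. The cause of these changes was not tested.

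The replicate block gave 4 genes for desipramine over both surgeries, 0 for SNI over all treatments, and 3 members for SNI on desipramine, where Pdgfra was lost (edgeR adjusted p = 0.0607). Replicate numbers did not pair the libraries: 23 of 67 same-number pairs had a correlation above 0.1, with a median of 0.0025, and 3 of 30 libraries correlated best with their own number.

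Leaving out single libraries gave these ranges. SNI on desipramine had 0 to 10 members, 0 to 5903 genes, a mature median of 0.10 to 0.43 and a precursor median of 0.16 to 0.36. SNI over all treatments had 0 to 4 members, 0 to 3756 genes and a mature median of 0.02 to 0.13. Desipramine in SNI mice had 0 to 4 members, 0 to 3352 genes, a mature median of -0.06 to 0.20 and a precursor median of 0.12 to 0.30. The interaction had 0 to 2 members, 0 to 957 genes, a mature median of 0.14 to 0.42 and a precursor median of 0.085 to 0.28. Desipramine in sham mice had 0 to 2 genes and a mature median of -0.37 to -0.10, and over both surgeries 2 to 360 genes and a mature median of -0.13 to 0.01. Groups of 4 to 6 animals limit the precision of every comparison, and depth differs between the library sets.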

Other observations

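In library set 2, the mature score was -0.22, -0.27 and -0.29 in the SNI libraries (tianeptine replicates 5 and 6, saline replicate 5), against -0.01, -0.02 and -0.02 in the sham libraries of the same set (tianeptine replicates 5 and 6, saline replicate 5). Mog stood at 49.7, 45.0 and 45.9 CPM in those SNI libraries, against 58.9, 58.2 and 56.4 CPM in those sham libraries. Mbp stood at 1199, 1092 and 1196 CPM in the SNI libraries, against 1301, 1327 and 1263 CPM in the sham libraries. The 3 SNI libraries lay below the 3 sham libraries for both genes and for the score. In library set 1 alone the median log2 fold change of the mature members for SNI against sham over all treatments was 0.12. This difference was noticed after the values were seen and was not tested.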
